A study of Homo sapiens with 10 samples.

Results

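Gene expression was compared between the human glioblastoma cell lines DBTRG-05MG and U87, both long established in culture, in the libraries labelled 0 h, before dibutyryl cAMP (dbcAMP, a cell-permeable cyclic AMP analogue that activates protein kinase A) had acted. The comparison used 2 of the 10 libraries of the series, DBTRG-05MG at 0 h and U87 at 0 h. The other 8 libraries are the same lines at 6, 12, 24 and 48 h of 1 mM dbcAMP by the labels. The text on the series states the dose in a different unit and a treatment that lasted longer. RNA was selected by poly(A), sequenced and deposited as 1 value per gene, read here as FPKM, fragments scaled by transcript length and library size. Each line stands for 1 tumour grown in culture and has 1 library at 0 h, so no test, error or p-value is given. A difference therefore describes 2 libraries. All ratios are log2((FPKM + 1) ratio) of DBTRG-05MG over U87, so that a positive value is higher in DBTRG-05MG. The filter kept genes whose mean of the 2 libraries reached 1 FPKM, which are 12306 of 20379 genes in the table, and the other 8073 fell under that filter. Beside each 0 h value, the 4 later pairs of libraries show whether a difference was seen again. They come from those lines under dbcAMP and are not replicates.

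Glioblastoma cells are often described by how much of a neural stem, proneural or mesenchymal programme they express, and cultured lines often lose the astrocyte markers of the parent tumour. HOX genes, silent in most of the adult forebrain, record the body position of a cell and are expressed in some gliomas. Cells exposed to interferon, or that make it themselves, switch on a set of antiviral genes. Receptors, cAMP machinery and metabolic enzymes set what a line can sense and burn before any drug is added.

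The lines stood far apart. At 0 h, 2232 genes, or 18.1% of those past the filter, had a level at least 2-fold higher in DBTRG-05MG and 1382 genes, or 11.2%, one at least 2-fold higher in U87, while 8692 lay within 2-fold. The median log2 ratio of all genes was 0.10. A 4-fold difference was passed by 887 genes (7.21%) in favour of DBTRG-05MG and by 355 genes (2.88%) in favour of U87. By the same 2-fold measure, 29.4% of genes differed between the lines at 0 h, against 2.02% between 0 and 6 h within DBTRG-05MG and 5.78% within U87. Of the genes 2-fold higher at 0 h, 1300 (58.2%) on the DBTRG-05MG side and 506 (36.6%) on the U87 side were so again in all 4 later pairs. These shares, 18.1% and 11.2% at 0 h and 58.2% and 36.6% in later pairs, are the background for each list below. In these shares as in each list, genes near 0 in one line passed the filter through the other line alone. The counts of each list are therefore descriptions, not tests.

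Values of the libraries as a whole stand beside these counts. Read counts were not used here. From the steps of the lowest values, the U87 library had 114.17% of the depth of the DBTRG-05MG library, with roughly 8.87 M and 10.13 M fragments in DBTRG-05MG and U87, so that 1 fragment in a 2 kb transcript is worth about 0.0564 and 0.0494 FPKM. A value of 0 thus means not detectable at this depth. The 72 cytosolic ribosomal protein genes made up 7.952% of the total FPKM in DBTRG-05MG and 14.443% in U87, and 39 of them were at least 2-fold higher in U87, none in DBTRG-05MG. The noncoding RNA BCYRN1 took 3.367% of the total in DBTRG-05MG and 9.146% in U87. The part of these shares in the other differences was not tested. Genes of families with near-identical copies (IFITM, HLA class I, aldo-keto reductases, ferritins, keratin 18 and ribosomal proteins) can trade reads between copies, and their values are uncertain to that extent.

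**Figure D1:**
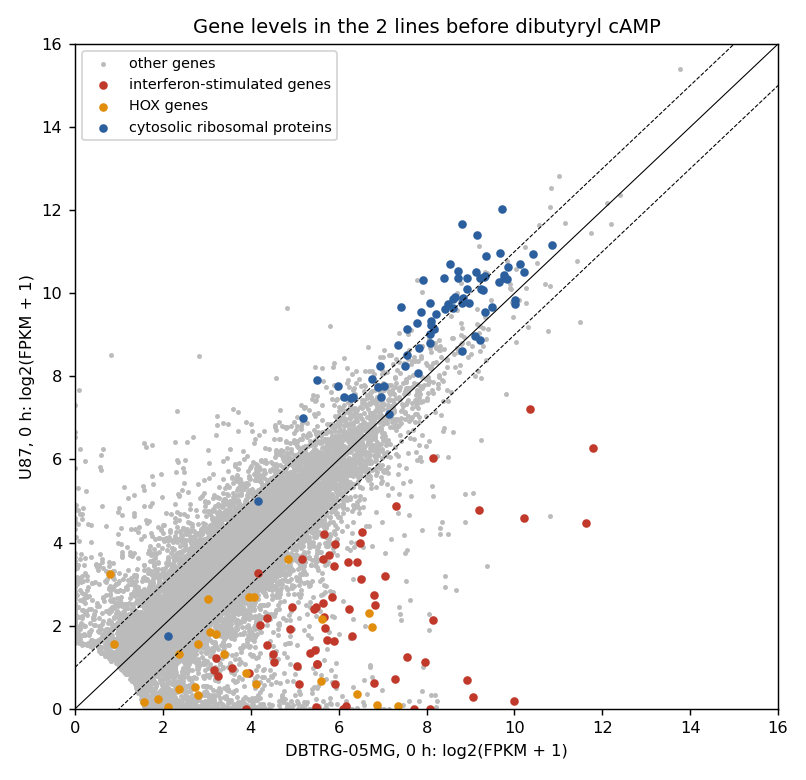
Level of each gene past the filter in DBTRG-05MG (horizontal) and U87 (vertical) at 0 h, both as log2(FPKM + 1), 1 point per gene and 1 library per line; the solid line marks equal levels and the dashed lines a 2-fold difference. Of the interferon-stimulated genes 65 of 66, and of the HOX genes 23 of 26, lie at or below the lower dashed line, and 39 of 72 ribosomal protein genes lie at or above the upper one.

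The 15 genes with the largest ratio towards DBTRG-05MG included 5 antiviral genes. IFITM1, a membrane protein that blocks virus entry, stood at 1008 FPKM in DBTRG-05MG and 0.138 in U87. MX1, a GTPase that traps viral nucleocapsids, stood at 533 and 0.219 FPKM in DBTRG-05MG and U87. IFI27 stood at 480.1 FPKM in DBTRG-05MG and 0.606 in U87. BST2, the tether that holds budding virus at the cell surface, and OAS1, which makes the messenger that activates RNase L, reached 269 and 210.4 FPKM in DBTRG-05MG and were listed at 0 in U87. The other 10 were of other kinds. Among them, the matrix protein EFEMP1 (297 FPKM in DBTRG-05MG, 0.0319 FPKM in U87), the chemoattractant chemerin gene RARRES2 (302 and 0.133), the metalloprotease inhibitor TIMP3 (176 and 0.072) and the monocyte chemokine CCL2 (192 and 0.132) were secreted products. The insulin-like growth factor binders IGFBP2 (227 FPKM in DBTRG-05MG, 0.138 FPKM in U87) and IGFBP4 (237 and 0.353) were secreted too. KRT18, HOXB8, SERPINB5 and the unnamed locus LOC100505817 completed the 15.

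The 15 genes with the largest ratio towards U87 were of several kinds. CSF3, the granulocyte colony-stimulating factor, stood at 0.765 FPKM in DBTRG-05MG and 367 in U87. The BMP antagonists GREM1 and SMOC1 were listed at 0 in DBTRG-05MG, against 158 and 92.2 FPKM in U87. HGF, the ligand of MET, stood at 0.0789 and 75.2 FPKM in DBTRG-05MG and U87. Interleukin 1 beta (IL1B) stood at 6.02 FPKM in DBTRG-05MG, against 362 FPKM in U87. BDKRB1, a bradykinin receptor, and MLPH, which links melanosomes to myosin, were listed at 0 in DBTRG-05MG and stood at 54.1 and 99.4 FPKM in U87. BASP1, a growth-cone membrane protein, had 0.0574 FPKM in DBTRG-05MG and 202 in U87, and the GABA receptor subunit GABRQ had 0.507 and 68 FPKM. A near-absolute contrast, under 0.1 FPKM in one line and at least 10 FPKM in the other, held for 126 genes (1.02%) towards DBTRG-05MG and 30 genes (0.244%) towards U87. It held in all 5 libraries of each line for 51 genes (0.414%) and 14 genes (0.114%).

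Interferon-stimulated genes were nearly all higher in DBTRG-05MG. Of 66 listed genes, all 66 passed the filter, 65 were 2-fold or more higher in DBTRG-05MG and none was 2-fold higher in U87, against 18.1% and 11.2% of all genes. Their median log2 ratio was 3.79, and 63 were 2-fold higher again in all 4 later pairs. The list was drawn up with earlier results of these data known. Members listed at 0 in U87, such as BST2 and OAS1, passed the filter through DBTRG-05MG alone. The 65 of 66 is thus a description, not a test against the share of all genes. GBP2 was the exception at 0 h, with 16.9 FPKM in DBTRG-05MG and 8.67 in U87. The most abundant were IFITM3 (3557 FPKM in DBTRG-05MG, 76.1 FPKM in U87), IFI6 (3156 and 21.4), LGALS3BP (1305 and 147) and the ubiquitin-like modifier ISG15 (1194 and 23.1). XAF1 and CMPK2 were listed at 0 in U87, against 67.9 and 44.2 FPKM in DBTRG-05MG. IFITM1 ranged from 599 to 868 FPKM across the later DBTRG-05MG libraries and from 0 to 0.544 FPKM across those of U87.

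Promoters of antiviral genes among those higher in DBTRG-05MG are shown. Each window runs from 250 bases before to 50 bases after the RefSeq transcript start (GRCh38.p14), 5′ to 3′ on the gene's strand. Capitals mark matches to GAAA, any 2 bases and GAAA, the core of the interferon-stimulated response element, searched on both strands (on the other strand it reads TTTC, any 2 bases and TTTC), and overlapping matches run together.
IFITM1, chr11:313790-314089, plus strand: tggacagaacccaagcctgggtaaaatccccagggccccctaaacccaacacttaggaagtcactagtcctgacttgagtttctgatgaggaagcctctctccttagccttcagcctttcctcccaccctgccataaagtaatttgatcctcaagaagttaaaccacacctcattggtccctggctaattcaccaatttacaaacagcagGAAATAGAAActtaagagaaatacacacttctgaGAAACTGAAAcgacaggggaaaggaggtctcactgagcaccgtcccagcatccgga
MX1, chr21:41420308-41420607, plus strand: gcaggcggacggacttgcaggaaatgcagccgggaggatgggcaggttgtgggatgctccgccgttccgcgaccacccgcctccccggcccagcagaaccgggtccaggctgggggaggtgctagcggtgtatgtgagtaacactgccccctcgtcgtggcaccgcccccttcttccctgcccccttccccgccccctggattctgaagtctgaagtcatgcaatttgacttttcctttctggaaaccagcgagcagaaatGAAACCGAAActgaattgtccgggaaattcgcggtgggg
IFI27, chr14:94110486-94110785, plus strand: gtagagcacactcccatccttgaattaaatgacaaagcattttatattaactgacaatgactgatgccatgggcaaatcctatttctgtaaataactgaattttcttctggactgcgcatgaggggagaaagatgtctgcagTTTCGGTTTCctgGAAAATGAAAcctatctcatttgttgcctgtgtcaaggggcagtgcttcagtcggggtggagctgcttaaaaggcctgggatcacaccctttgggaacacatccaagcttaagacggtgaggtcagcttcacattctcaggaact
BST2, chr19:17405581-17405880, minus strand: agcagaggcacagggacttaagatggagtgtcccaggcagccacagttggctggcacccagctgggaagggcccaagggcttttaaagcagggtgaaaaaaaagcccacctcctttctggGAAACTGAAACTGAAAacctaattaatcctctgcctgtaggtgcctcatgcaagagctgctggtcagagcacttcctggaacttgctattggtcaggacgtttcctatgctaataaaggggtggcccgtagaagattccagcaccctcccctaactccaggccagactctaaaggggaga
IFI6, chr1:27672143-27672442, minus strand: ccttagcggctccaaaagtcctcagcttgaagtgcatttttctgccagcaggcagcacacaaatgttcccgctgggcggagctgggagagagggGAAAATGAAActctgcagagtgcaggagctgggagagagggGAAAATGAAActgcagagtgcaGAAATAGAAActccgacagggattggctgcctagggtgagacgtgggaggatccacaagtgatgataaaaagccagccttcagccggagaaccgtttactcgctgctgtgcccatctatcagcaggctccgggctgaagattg
MX1 held 1 match, IFITM1, IFI27 and BST2 held 2 each and IFI6 held 3. In BST2 the 2 matches overlap. OAS1, XAF1 and RSAD2 had no match of these letters in the window. Of the 51 interferon-stimulated genes with a promoter in the table, 31 (60.8%) held the motif, against 287 of 9758 genes (2.94%) past the filter and 996 of 27305 promoters in all (3.65%). Among HOX genes 0 of 20 held it. A match is a string of letters, not a measured binding site. The list was made of interferon-stimulated genes, so its share describes the genes listed and not the 2 libraries.

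**Figure D2:**
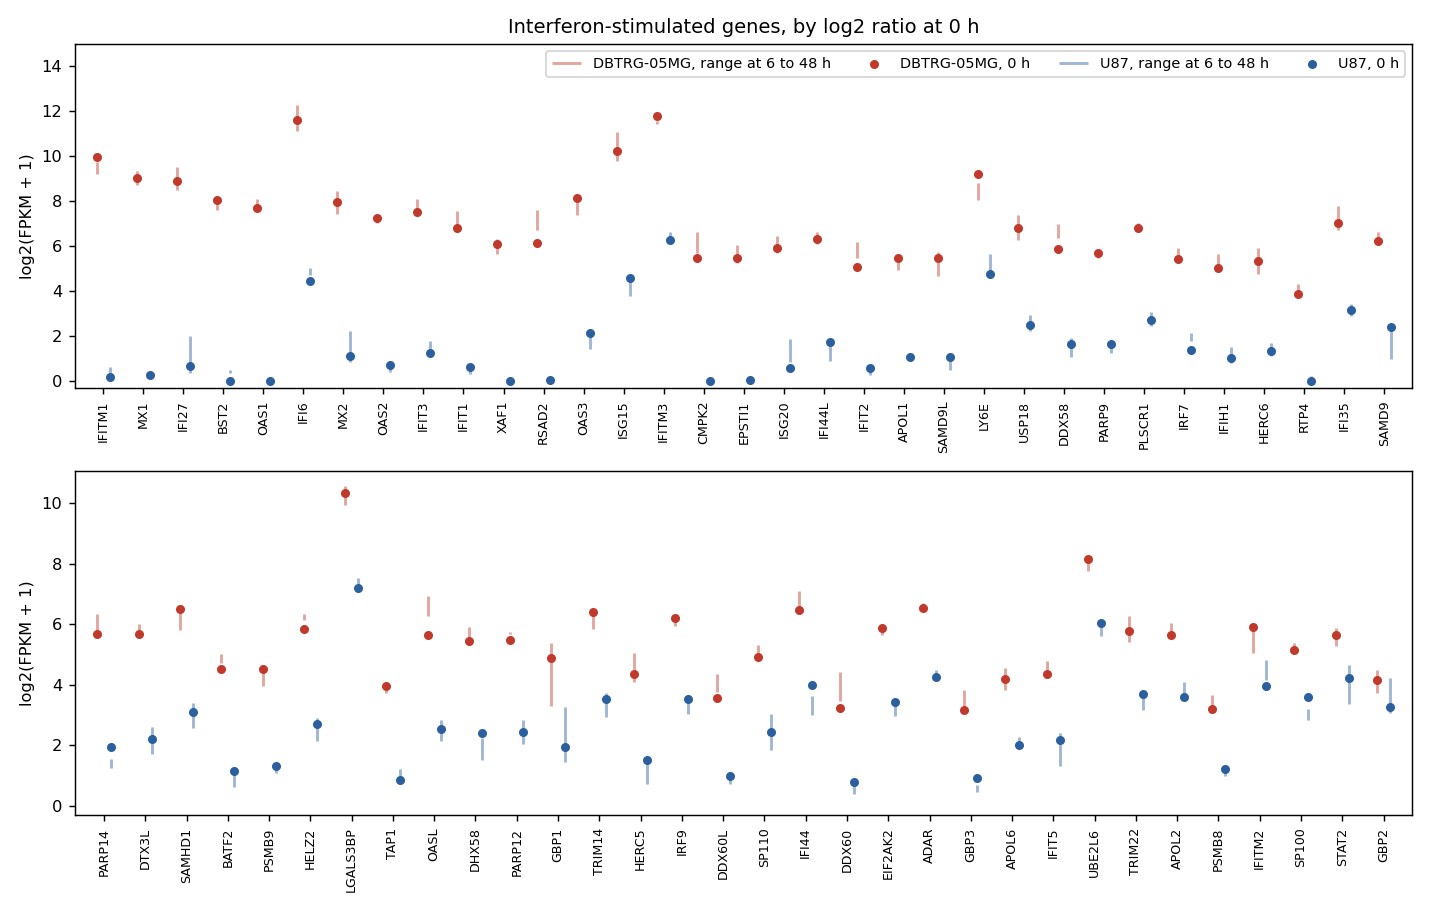
Levels of 65 of the 66 interferon-stimulated genes as log2(FPKM + 1), in order of their log2 ratio at 0 h; points are the 0 h libraries of DBTRG-05MG (left of each pair) and U87, and bars span the 4 later libraries of each line. DBTRG-05MG stands above U87 at 0 h for each gene plotted, and the bars of most genes stay apart as well.

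Factors and sensors of the interferon response, of which IRF9, IRF7, DDX58 and IFIH1 are also in the list just described, lay mostly with DBTRG-05MG. IRF9, a DNA-binding factor of the type I interferon response, stood at 72.5 FPKM in DBTRG-05MG and 10.6 in U87. IRF7, which amplifies interferon production, stood at 43 FPKM in DBTRG-05MG and 1.66 in U87. The kinase JAK1 was on the other side, with 15.1 FPKM in DBTRG-05MG and 56.8 in U87. The subunits of the type I interferon receptor were at similar levels, IFNAR1 at 8.68 and 7.57 FPKM and IFNAR2 at 5.68 and 6.68 FPKM in DBTRG-05MG and U87. Of 21 interferon and nucleic acid sensor genes past the filter, 14 were 2-fold or more higher in DBTRG-05MG and 1 in U87 (median 2.07). Ligand transcripts were detected in DBTRG-05MG. IFNL1, a type III interferon, stood at 9.09 FPKM and IFNB1 at 1.21 FPKM there, and both were listed at 0 in U87; IFNB1 fell under the filter. The RNA sensor genes DDX58 (RIG-I, 58.6 FPKM in DBTRG-05MG, 2.12 FPKM in U87), IFIH1 (MDA5, 32.2 and 1.04) and TLR3 (6.34 and 0.0325) were higher in DBTRG-05MG. The DNA sensing pair MB21D1 (cGAS) and TMEM173 (STING) was also higher in DBTRG-05MG, at low levels of 3.19 and 2.69 FPKM, against 0 and 0.0908 FPKM in U87.

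Antigen presentation genes followed the same side. Of 22 past the filter, 17 were 2-fold or more higher in DBTRG-05MG and 1 in U87, with a median log2 ratio of 1.84. The class I heavy chains HLA-B (196 FPKM in DBTRG-05MG, 5.18 FPKM in U87) and HLA-C (164 and 4.48) and their light chain B2M (2875 and 636) were all higher. TAP1, the peptide pump, stood at 14.5 FPKM in DBTRG-05MG and 0.803 in U87. The class II chaperone CD74 was the gene higher in U87, with 2.75 FPKM in DBTRG-05MG and 12.6 in U87.

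The cell type markers did not place either line as an astrocyte. The astrocyte filament GFAP stood at 0.224 FPKM in DBTRG-05MG and 0.147 in U87, and the water channel AQP4 at 0.108 and 0.0379 FPKM. Of 12 astrocyte markers, 7 passed the filter and 3 were 2-fold higher in DBTRG-05MG, among them FABP7, a radial glia lipid carrier (25.7 FPKM in DBTRG-05MG, 0.198 FPKM in U87), and NDRG2 (11.7 and 0.0449). The glutamate carrier SLC1A3 was within 2-fold, at 1.58 FPKM in DBTRG-05MG and 3.74 in U87, and was at least 2-fold higher in U87 in all 4 later pairs. OLIG2, the oligodendrocyte lineage factor, stood at 0.0897 and 1.69 FPKM in DBTRG-05MG and U87, under the filter. Of 12 oligodendrocyte lineage markers, 5 passed the filter, 3 of them 2-fold higher in DBTRG-05MG and 1 in U87. CNP (53.6 FPKM in DBTRG-05MG, 16.1 FPKM in U87), MBP (14.3 and 2.43) and MYRF (2.58 and 0.0825) were the 3, and CSPG4 (1.39 and 12) the 1. Of myeloid and lymphoid markers only CD68 passed, at 101 FPKM in DBTRG-05MG and 415 in U87, a lysosomal protein gene that other cells express as well. Of 3 endothelial markers past the filter, 1 was 2-fold higher in DBTRG-05MG (EGFL7, 9.65 FPKM in DBTRG-05MG, 0.0384 in U87) and 1 in U87 (TEK, 0.237 and 2.43).

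Neural stem genes were mostly higher in DBTRG-05MG. Of 11 glioma stem and proneural markers past the filter, 8 were 2-fold or more higher in DBTRG-05MG and 1 in U87, with a median log2 ratio of 2.19, and these 9 differences were seen again in all 4 later pairs. Members near 0 in U87, such as SOX2 and POU3F2, passed the filter through DBTRG-05MG alone. SOX2, the stem cell transcription factor, stood at 36.6 FPKM in DBTRG-05MG and was listed at 0 in all 5 U87 libraries. The related SOX3 and SOX21 stood at 121 and 13.5 FPKM in DBTRG-05MG and were listed at 0 in U87. The Notch effector HES1 had 32 FPKM in DBTRG-05MG and 0.135 in U87, the neural factor POU3F2 12.9 and 0.0483 FPKM, and the RNA-binding protein MSI1 8.6 and 0.0332 FPKM. Nestin (NES), the filament of neural progenitors, stood at 45.5 and 9.17 FPKM. NCAM1, the neural adhesion molecule, was the member higher in U87, at 0.0529 FPKM in DBTRG-05MG and 4.48 in U87. Of 8 neuron markers past the filter, 3 were 2-fold higher in DBTRG-05MG and 1 in U87. The neurofilament NEFL stood at 52.1 FPKM in DBTRG-05MG and 0 in U87, whereas the tubulin TUBB3 stood at 41.8 FPKM in DBTRG-05MG and 186 in U87.

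Mesenchymal markers leaned to U87. Of 24 past the filter, 4 (16.7%) were 2-fold or more higher in DBTRG-05MG and 10 (41.7%) in U87 (median -0.38). In all 4 later pairs 6 of those 10 were so again, against 36.6% of all genes 2-fold higher in U87. Podoplanin (PDPN), a glycoprotein of invasive cells, was listed at 0 in DBTRG-05MG and stood at 26.6 FPKM in U87. SNAI2, a repressor of epithelial genes, had 2.35 FPKM in DBTRG-05MG and 81.1 in U87, and CEBPB, a driver of the mesenchymal glioma state, 7.11 and 73.5 FPKM. Tenascin (TNC) stood at 43 FPKM in DBTRG-05MG and 297 in U87, and vimentin (VIM) at 2072 and 7246 FPKM. The members did not all go that way. CD44, the hyaluronan receptor, stood at 545 and 258 FPKM in DBTRG-05MG and U87 at 0 h, a difference seen again in 0 of 4 later pairs, since it ran from 321 to 422 FPKM in later DBTRG-05MG and from 487 to 691 FPKM in later U87 libraries. The YAP partner WWTR1 (TAZ) was higher in DBTRG-05MG, at 50.8 FPKM against 11.6 FPKM in U87.

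Some epithelial genes were higher in DBTRG-05MG. Of 16 epithelial markers, 10 fell under the filter. Of the 6 past it, 4 were 2-fold higher in DBTRG-05MG and none in U87. Keratin 18 (KRT18) stood at 274 FPKM in DBTRG-05MG and 0.257 in U87, its partner KRT8 at 28.8 and 2.01 FPKM, the tight junction protein CLDN1 at 26.3 and 0.172 FPKM, and the serpin SERPINB5 at 141 FPKM and 0. KRT7 was within 2-fold, at 4.04 FPKM in DBTRG-05MG and 1.97 in U87. The defining adhesion genes EPCAM and CDH1 were under 1 FPKM in both lines, and so were KRT19, ESRP1, GRHL2 and DSP. Of cadherins, 7 of 9 past the filter were 2-fold higher in DBTRG-05MG. N-cadherin (CDH2) led with 181 FPKM in DBTRG-05MG and 12.5 in U87. Of 4 melanocyte markers past the filter, 3 were 2-fold higher in U87, with MITF, the pigment cell regulator, at 1.29 FPKM in DBTRG-05MG and 4.41 in U87. The pigment markers PMEL, MLANA and DCT were under 1 FPKM in both lines at 0 h.

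HOX genes were mostly higher in DBTRG-05MG, though U87 had transcripts of several. Of 39 in the table, 26 passed the filter, 23 were 2-fold or more higher in DBTRG-05MG and 1 in U87, and the median log2 ratio was 1.99. The difference was seen again in all 4 later pairs for 14 of the 23, against 58.2% of all genes 2-fold higher in DBTRG-05MG, and for that 1 gene. The HOXB cluster on chromosome 17 carried the highest levels. HOXB8 stood at 162 FPKM in DBTRG-05MG and 0.0542 in U87, HOXB9 at 117 and 0.0731 FPKM, and HOXB7 at 84.9 and 0.289 FPKM. Nearer the 3′ end of the cluster both lines had transcripts, HOXB3 at 103 FPKM in DBTRG-05MG and 3.9 in U87 and HOXB2 at 27.6 and 11.2 FPKM. Distal HOXA genes stayed under 1 FPKM in both lines, HOXA9 at 0.11 and 0 FPKM and HOXA10 at 0.389 and 0 FPKM in DBTRG-05MG and U87. HOXD8 was the gene at least 2-fold higher in U87, with 0.729 FPKM in DBTRG-05MG and 8.41 in U87. Other HOXD genes were present in both lines. HOXD4 was within 2-fold, at 7.13 FPKM in DBTRG-05MG and 5.26 in U87. HOXD10 stood at 15.9 and 5.47 FPKM, a difference seen again in 2 of 4 later pairs. Of 45 other patterning factors past the filter, 17 (37.8%) were 2-fold higher in DBTRG-05MG and 5 (11.1%) in U87, against 18.1% and 11.2% of all genes. The midbrain factor EN1 and the ventral neural tube factor NKX2-2 stood at 8.07 and 7.8 FPKM in DBTRG-05MG and were listed at 0 in U87. Mesoderm factors lay on both sides. FOXF1 (1.98 FPKM in DBTRG-05MG, 82.9 FPKM in U87), TBX2 (5.44 and 92.3) and TBX18 (0.0372 and 3.61) were higher in U87. FOXF2 (3.61 FPKM in DBTRG-05MG, 0 in U87), TBX5 (2.69 and 0) and FOXC1 (11.7 and 2.4) were higher in DBTRG-05MG.

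**Figure D3:**
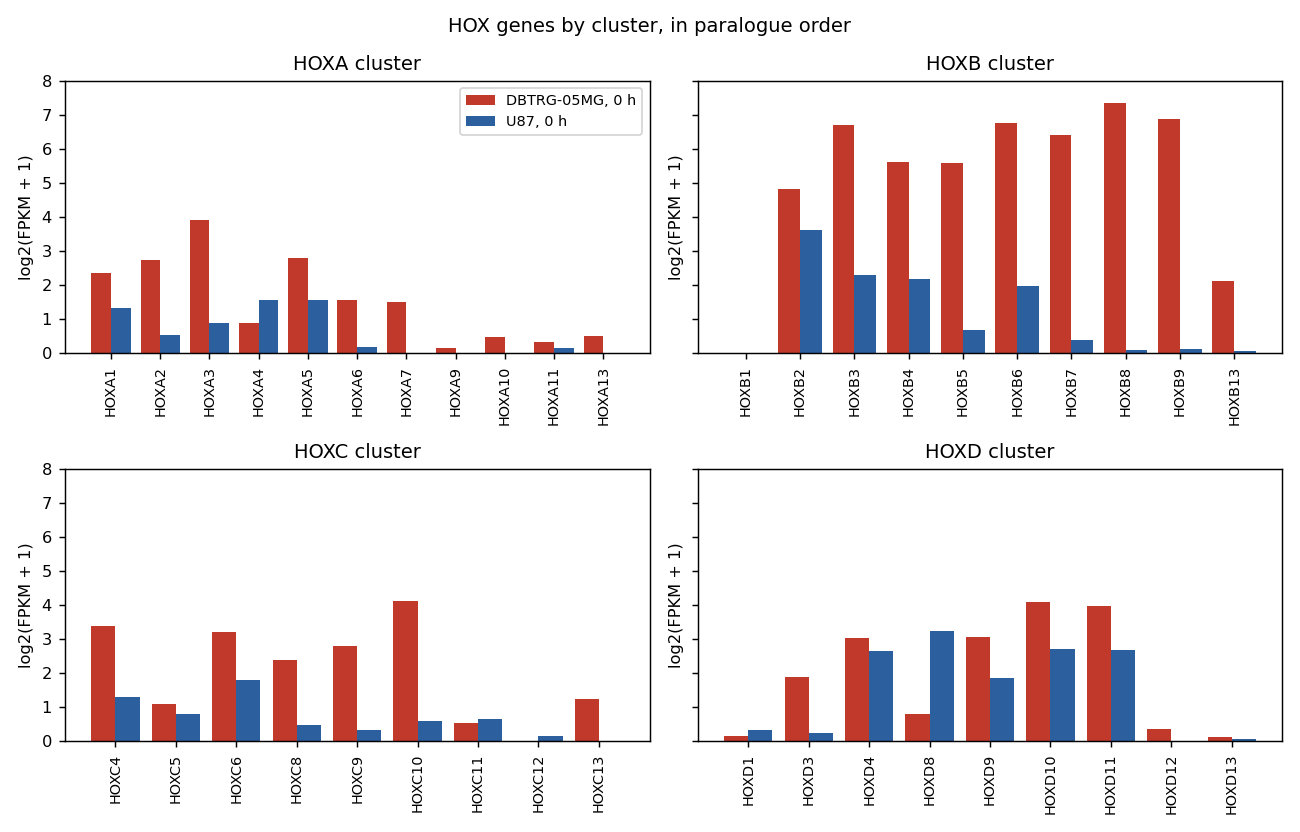
HOX gene levels at 0 h as log2(FPKM + 1) in DBTRG-05MG (left bar of each pair) and U87, by cluster and paralogue number, 1 library per line. The HOXB panel is the tallest in DBTRG-05MG, up to HOXB8 at 162 FPKM, and HOXD8 and HOXA4 are among the few genes with a taller U87 bar.

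Matrix genes lay on both sides. Of 20 collagen genes past the filter, 9 were 2-fold higher in DBTRG-05MG and 8 in U87. The fibrillar chains COL1A2 (3.96 FPKM in DBTRG-05MG, 143 FPKM in U87) and COL1A1 (1.96 and 28.6) and the microfibril chain COL6A3 (48.2 and 294) were higher in U87. The basement membrane chains COL4A2 (104 FPKM in DBTRG-05MG, 1.02 FPKM in U87), COL4A1 (49.4 and 0) and COL18A1 (25.7 and 0.114) were higher in DBTRG-05MG. COL4A1 and COL4A2 lie head to head on chromosome 13 (GRCh38, 110148963 to 110307233 on the minus strand and 110305812 to 110513209 on the plus strand). Neither kind lay on 1 side as a whole. The basement membrane chains COL4A5 (5.87 FPKM in DBTRG-05MG, 12.8 FPKM in U87) and COL4A6 (3.74 and 11) were higher in U87, and the fibrillar chains COL11A1 (14 and 0.0663), COL5A2 (35.8 and 12.1) and COL27A1 (6.84 and 2.05) in DBTRG-05MG. The laminin linker NID1 stood at 43.2 and 0.806 FPKM in DBTRG-05MG and U87, and its relative NID2 at 11.1 and 33.4 FPKM. The difference of 14 of the 17 collagen genes was seen again in all 4 later pairs. These were 7 of the 9 higher in DBTRG-05MG and 7 of the 8 higher in U87, against 58.2% and 36.6% of all such genes. Osteopontin (SPP1) was among the most abundant transcripts of DBTRG-05MG, with 1795 FPKM against 23.7 FPKM in U87, and thrombospondin 1 (THBS1) stood at 265 and 2.75 FPKM. Fibronectin (FN1, 51.2 FPKM in DBTRG-05MG, 214 FPKM in U87), fibrillin (FBN1, 11 and 148) and versican (VCAN, 18.9 and 77.1) were higher in U87. Of 24 metalloprotease and inhibitor genes past the filter, 6 (25%) were 2-fold higher in DBTRG-05MG and 11 (45.8%) in U87 (median -0.96). The collagen-cutting enzymes MMP2 (83.1 FPKM in DBTRG-05MG, 278 FPKM in U87), its activator MMP14 (36.4 and 154) and stromelysin MMP3 (0.123 and 22.6) were higher in U87. Among the fibroblast and pericyte markers, 4 of 9 lay on each side, with THY1 at 17.5 FPKM in DBTRG-05MG and 0.206 in U87 and FAP at 0.122 and 8.24 FPKM.

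Of 25 glioma driver genes past the filter, 9 (36%) were 2-fold or more higher in DBTRG-05MG and none in U87, against 18.1% and 11.2% of all genes. Of the 9, 6 were so again in all 4 later pairs, against 58.2% of all such genes. CDKN2C, which encodes an inhibitor of CDK4 and CDK6, stood at 18.4 FPKM in DBTRG-05MG and was listed at 0 in all 5 U87 libraries. MTAP, an enzyme of methionine salvage that lies beside CDKN2A on chromosome 9, stood at 7.24 FPKM in DBTRG-05MG and 0.0201 in U87. CDKN2A itself, and the DNA repair gene MGMT, were listed at 0 in both lines. The ubiquitin ligase gene MDM2 stood at 31.7 FPKM in DBTRG-05MG and 8.06 in U87, and the cell cycle brake RB1 at 35.5 and 9.66 FPKM. CCND1 had 389 FPKM in DBTRG-05MG and 101 in U87, and its kinase CDK6 25.6 and 3.58 FPKM. Cell division genes were close. Of 32, none was 2-fold higher in DBTRG-05MG and 4 (12.5%) were in U87, where the share of all genes was 11.2%. MKI67 stood at 79.9 FPKM in DBTRG-05MG and 53.7 in U87.

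Receptor tyrosine kinases leaned to DBTRG-05MG. Of 58 in the table, 27 passed the filter, with a median log2 ratio of 1.05. At least 2-fold higher were 14 (51.9%) in DBTRG-05MG and 4 (14.8%) in U87, against 18.1% and 11.2% of all genes. Of the 14 and 4, 11 and 1 were so again in all 4 later pairs, against 58.2% and 36.6% of all such genes. The ephrin receptors EPHA2 (192 FPKM in DBTRG-05MG, 24.2 FPKM in U87), EPHB4 (30.1 and 2.77) and EPHA3 (6.79 and 0.0148) were higher in DBTRG-05MG. The neurotrophin receptors followed, NTRK3 at 16.8 and 1.06 FPKM and NTRK2 at 6.98 FPKM and 0 in DBTRG-05MG and U87. ERBB2, the shared partner of the EGF receptor family, stood at 14.8 FPKM in DBTRG-05MG and 1.48 in U87. EGFR itself was close, at 16.1 and 15.5 FPKM. IGF1R stood at 19.9 and 3.89 FPKM in DBTRG-05MG and U87. FGFR1 was higher in U87, at 8.74 FPKM in DBTRG-05MG and 32.6 in U87, and so was PDGFRB, at 1.62 and 8.33 FPKM. MET (79.7 FPKM in DBTRG-05MG, 41.3 FPKM in U87), AXL (119 and 174) and PDGFRA (0.634 and 1.7) lay within 2-fold.

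Ligands and receptors can be read side by side. The MET ligand HGF was in U87, as given above, while both lines had MET. The EGFR ligands TGFA (170.4 FPKM in DBTRG-05MG, 3.41 FPKM in U87) and EGF (7.21 and 0.0884) were in DBTRG-05MG, with EGFR in both. GAS6, the ligand of AXL and MERTK, stood at 44.3 FPKM in DBTRG-05MG and 0.405 in U87, and MERTK at 4.85 and 0.0545 FPKM. EFNB2, the ligand of EPHB4, stood at 166 and 3.83 FPKM, higher in the same line as its receptor. Midkine (MDK) stood at 324 FPKM in DBTRG-05MG and 21.5 in U87, and GDNF at 2.31 and 17.8 FPKM. Of 37 ligands past the filter, 10 (27.0%) were 2-fold higher in DBTRG-05MG and 4 (10.8%) in U87, against 18.1% and 11.2% of all genes.

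**Figure D4:**
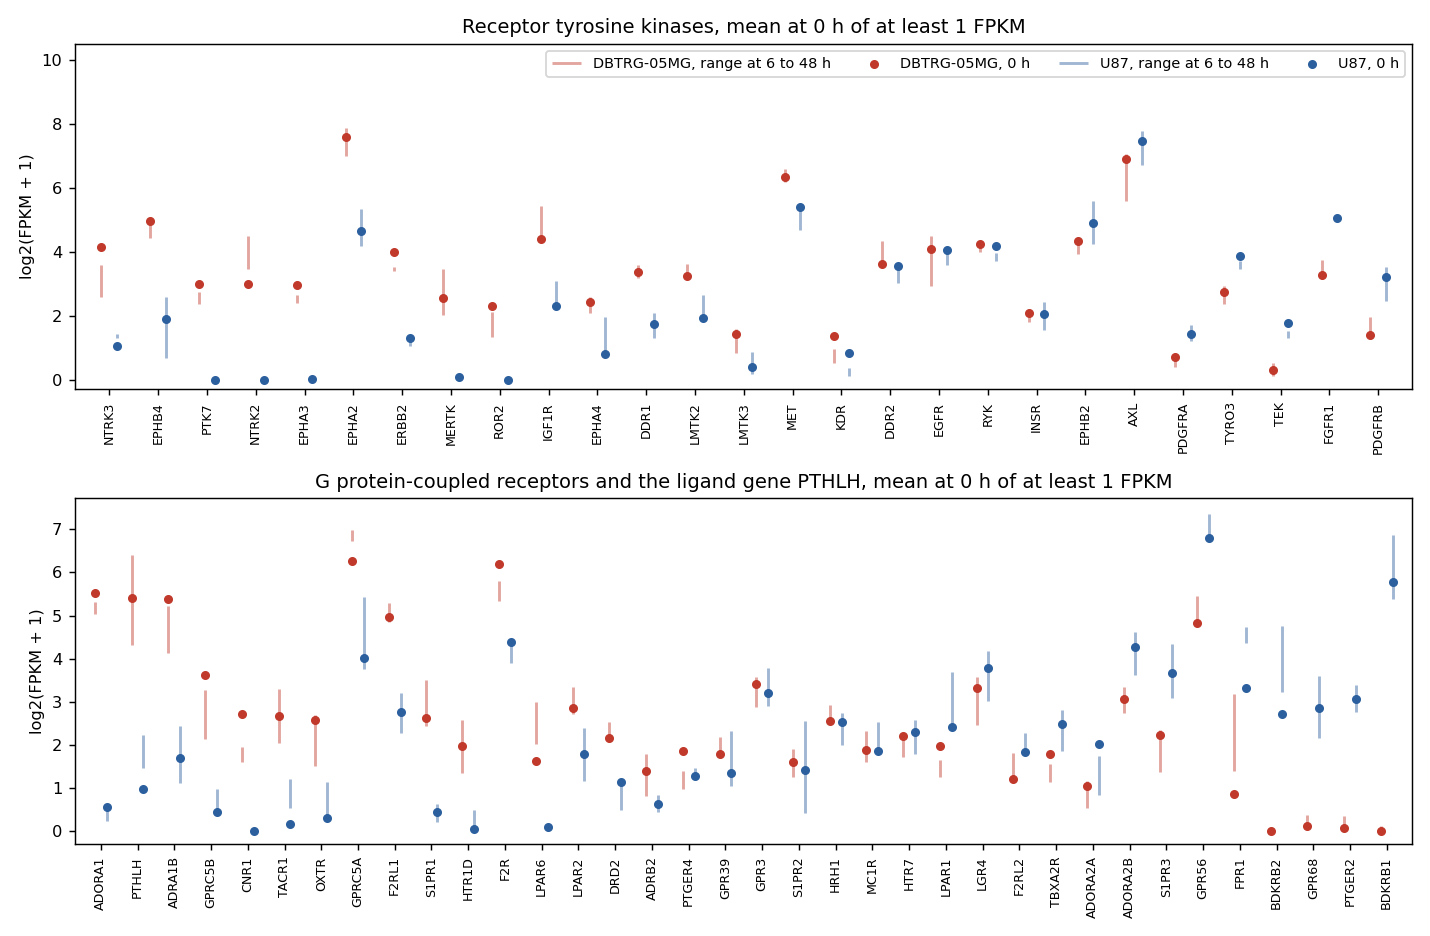
Receptor tyrosine kinases (top) and G protein-coupled receptors with the ligand gene PTHLH (bottom) past the filter, as log2(FPKM + 1), in order of the log2 ratio at 0 h; points are the 0 h libraries of DBTRG-05MG (left of each pair) and U87, and bars span the 4 later libraries. EGFR and RYK sit level, while NTRK2, PTK7 and BDKRB1 are at or near 0 in one of the lines.

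Among G protein-coupled receptors, 36 of 77 passed the filter, PTHLH included. At least 2-fold higher were 15 (41.7%) in DBTRG-05MG and 8 (22.2%) in U87, against 18.1% and 11.2% of all genes. The adenosine receptor ADORA1, which couples to the inhibitory G protein, stood at 44.9 FPKM in DBTRG-05MG and 0.473 in U87. The adrenergic receptor ADRA1B stood at 40.6 and 2.23 FPKM, and the cannabinoid receptor CNR1 at 5.53 FPKM and 0. U87 had the bradykinin receptors BDKRB1 and BDKRB2. BDKRB2 was listed at 0 in DBTRG-05MG and stood at 5.6 FPKM in U87. U87 also had the prostaglandin E receptor PTGER2, which raises cAMP, at 0.0455 FPKM in DBTRG-05MG and 7.41 in U87. The adhesion receptor GPR56 stood at 27.2 FPKM in DBTRG-05MG and 109.6 in U87. Single integrin subunits differed too. ITGB4, the laminin receptor subunit of epithelia, stood at 31 and 0.26 FPKM in DBTRG-05MG and U87, and ITGA4 at 23.5 and 1.3 FPKM. ITGB3, which pairs with ITGAV to bind vitronectin, stood at 2.9 and 49.1 FPKM. The orphan nuclear receptor NR2E1 (TLX), a neural stem cell factor, stood at 6.29 and 0.0303 FPKM.

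Cytokines and chemokines lay on both sides. Of 34 cytokine and chemokine genes past the filter, 19 (55.9%) were 2-fold or more higher in DBTRG-05MG and 7 (20.6%) in U87 (median 1.37). Of the 19 and 7, 13 and 7 were so again in all 4 later pairs, against 58.2% and 36.6% of all such genes. The chemokines CXCL1 (243 FPKM in DBTRG-05MG, 0.994 FPKM in U87), CCL5 (78.6 and 3.45), CX3CL1 (38.9 and 0) and CXCL10 (18.3 and 0.0812) lay with DBTRG-05MG, and CXCL10 and CCL5 are themselves induced by interferon. CSF3 and IL1B, given above, were among the 7 higher in U87. The stress cytokine GDF15 stood at 359 FPKM in DBTRG-05MG and 17.5 in U87. IL8, now named CXCL8, stood at 276 and 40.2 FPKM, a difference seen again in 1 of 4 later pairs.

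The IL-6 family, which the study's title puts at its centre, was uneven. IL6 stood at 2.95 FPKM in DBTRG-05MG and 13.6 in U87, and U87 was again at least 2-fold higher in all 4 later pairs. IL11 was within 2-fold, at 8.82 and 5.9 FPKM. The receptor IL6R was under 1 FPKM in both lines, at 0.172 and 0.827 FPKM, and the shared signal transducer IL6ST (gp130) stood at 16 FPKM in DBTRG-05MG and 44.6 in U87. STAT3, its transcription factor, lay the other way, with 48 FPKM in DBTRG-05MG and 16.9 in U87. The feedback inhibitor SOCS3 was within 2-fold, at 9.57 and 19.2 FPKM. Each of IL6ST and STAT3 kept a 2-fold difference in 2 of 4 later pairs.

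Of 38 cytokine receptors past the filter, 13 (34.2%) were 2-fold higher in DBTRG-05MG and 8 (21.1%) in U87, against 18.1% and 11.2% of all genes. The decoy receptor IL13RA2, a known glioma antigen, stood at 8.37 FPKM in DBTRG-05MG and 132 in U87. TNFRSF1B, the TNF receptor of immune cells, stood at 2.24 and 28.4 FPKM, and CD40 at 0.488 and 12.2 FPKM. IL1R1, the receptor of IL1B, stood at 2.14 FPKM in DBTRG-05MG and 9.28 in U87, so that ligand and receptor were higher in the same line. LTBR (22.7 FPKM in DBTRG-05MG, 0.554 FPKM in U87) and IL4R (12.2 and 0.703) were higher in DBTRG-05MG. NF-kappaB targets went both ways, 10 of 29 (34.5%) at least 2-fold higher in DBTRG-05MG and 8 (27.6%) in U87. ICAM1, an adhesion molecule for leukocytes, stood at 32.8 FPKM in DBTRG-05MG and 0.0913 in U87, and the brake TNFAIP3 (A20) at 46.3 and 4.08 FPKM. PTGS2, the inducible cyclooxygenase, stood at 0.176 and 11.4 FPKM, and the survival gene IER3 at 0.5 and 52.9 FPKM, both higher in U87.

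In developmental signalling, the TGF-beta and BMP receptors and SMADs were mostly alike, with 1 of 17 at least 2-fold higher in DBTRG-05MG and 2 in U87 (median 0.04). Of 22 ligands and antagonists, 9 (40.9%) were 2-fold higher in DBTRG-05MG and 4 (18.2%) in U87, against 18.1% and 11.2% of all genes. TGFB2 stood at 39.9 FPKM in DBTRG-05MG and 4.97 in U87, BMP4 at 4.4 and 0.0476 FPKM, BMP2 at 0.0358 and 6.96 FPKM and the latency protein LTBP1 at 15.2 and 102 FPKM. In the WNT, Notch and Hedgehog list, 14 of 32 (43.75%) were 2-fold higher in DBTRG-05MG and 8 (25%) in U87. The WNT antagonists SFRP1 (60.0 FPKM in DBTRG-05MG, 0.42 FPKM in U87) and DKK1 (184 and 7.38) were higher in DBTRG-05MG, and the ligands WNT7B (0.49 and 55.7) and WNT5A (9.31 and 61.5) in U87. The co-receptor LRP5 stood at 24 FPKM in DBTRG-05MG and 0.0578 in U87, and the Hedgehog transducer SMO at 11.2 FPKM and 0. The Notch ligand JAG1 (37.2 and 4.62 FPKM) and receptor NOTCH2 (13.2 and 72.4 FPKM) lay on opposite sides.

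The cAMP machinery, which dbcAMP enters downstream of its cyclases, differed between the lines in both directions. Of 40 components past the filter, 13 (32.5%) were 2-fold higher in DBTRG-05MG and 8 (20%) in U87, against 18.1% and 11.2% of all genes. The median log2 ratio was 0.12. Of the 13 and 8, 8 and 1 were so again in all 4 later pairs, against 58.2% and 36.6% of all such genes. The stimulatory G protein GNAS was close, at 237 and 252 FPKM in DBTRG-05MG and U87, and so within 2-fold was the catalytic subunit PRKACA, at 86.9 and 60.3 FPKM. The calcium-stimulated cyclase ADCY8 was listed at 0 in DBTRG-05MG and stood at 12.4 FPKM in U87. The calmodulin-dependent phosphodiesterase PDE1C stood at 40.0 FPKM in DBTRG-05MG and 0 in U87, and PDE4A at 5.7 and 0.135 FPKM, while PDE4B stood at 2.05 and 7.52 FPKM. The regulatory subunit PRKAR1B stood at 16.9 FPKM in DBTRG-05MG and 1.36 in U87, and the cAMP-gated exchange factor RAPGEF4 (EPAC2) at 2.36 and 0.0417 FPKM. The inhibitory G protein GNAI3 stood at 10.1 and 52.2 FPKM. RGS2, which speeds G protein shut-off, stood at 67.2 and 5.05 FPKM.

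ERK feedback genes showed no common side, with 9 of 43 (20.9%) of the RAS-ERK list at least 2-fold higher in DBTRG-05MG and 8 (18.6%) in U87. Of all genes, 18.1% and 11.2% were so. SPRY1 (14.6 FPKM in DBTRG-05MG, 0.162 FPKM in U87) and SPRY4 (54.4 and 6.11) were higher in DBTRG-05MG, and their relative SPRY2 (36.2 and 149) in U87. In the PI3K list, 7 of 30 (23.3%) were 2-fold higher in DBTRG-05MG and 1 (3.33%) in U87, against the same 18.1% and 11.2%. The other 22 lay within 2-fold, and the median log2 ratio was 0.02. The insulin adaptor IRS2 differed most, at 33.1 FPKM in DBTRG-05MG and 0.988 in U87. Of 26 YAP and TEAD genes, 9 (34.6%) and 1 (3.85%) were 2-fold higher in DBTRG-05MG and U87. ANKRD1 stood at 131 FPKM in DBTRG-05MG and 0 in U87, and CTGF at 145 and 16.1 FPKM, seen again in 2 of 4 later pairs. The cap'n'collar factor NFE2L3 stood at 41 FPKM in DBTRG-05MG and 0.399 in U87.

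Glycolysis genes were mostly within 2-fold. Of 24 glycolysis genes past the filter, 3 were 2-fold or more higher in DBTRG-05MG and 1 in U87, with a median log2 ratio of 0.10, equal at this precision to that of all genes, and none of the 4 was so in all 4 later pairs. The most abundant enzymes were close: GAPDH stood at 5419 FPKM in DBTRG-05MG and 5234 in U87, PKM at 2729 and 1744 FPKM, and LDHA at 1095 and 917 FPKM. LDHB stood at 108 and 166 FPKM. The hexokinases were within 2-fold, with HK1 at 76.9 FPKM in DBTRG-05MG and 154 in U87 and HK2 at 8.99 and 15.8 FPKM. HK2 passed 2-fold in all 4 later pairs. The switch enzyme PFKFB3, which makes the activator of phosphofructokinase, stood at 32.4 FPKM in DBTRG-05MG and 9.38 in U87, a difference seen again in 1 of 4 later pairs and turned round at 6 and 12 h. The glucose carrier SLC2A1 (GLUT1) was the exception in size, at 133 FPKM in DBTRG-05MG and 12.4 in U87, again 2-fold in 3 of 4 later pairs. The neuronal carrier SLC2A3 stood at 20.4 and 12.2 FPKM, and the lactate carriers SLC16A1 at 28.8 and 15.9 FPKM and SLC16A3 at 58.3 and 26.9 FPKM.

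Other hypoxia-induced genes did not follow SLC2A1. Of 25, 3 (12%) were 2-fold higher in DBTRG-05MG and 6 (24%) in U87 (median -0.75), against 18.1% and 11.2% of all genes. The carbonic anhydrase CA9 stood at 6.82 FPKM in DBTRG-05MG and 30.9 in U87, the collagen prolyl hydroxylase P4HA2 at 24 and 89.8 FPKM, and the factor EPAS1 (HIF2A) at 15.7 and 82.9 FPKM. BNIP3, a mitophagy receptor, stood at 229 FPKM in DBTRG-05MG, against 66 FPKM in U87, a difference seen again in 0 of 4 later pairs and turned round at 6, 12 and 24 h. Respiratory chain subunits were close, with 4 of 78 at least 2-fold higher in DBTRG-05MG and 5 in U87 (median -0.14). PPARGC1A, the coactivator of mitochondrial genes, stood at 16.7 FPKM in DBTRG-05MG and 0.735 in U87.

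Beside these lists, single enzymes were near absent in U87. NNT, which makes mitochondrial NADPH from the proton gradient, stood at 18.5 FPKM in DBTRG-05MG and 0.0815 in U87. The malic enzymes ME1 (12.7 FPKM in DBTRG-05MG, 0.0281 FPKM in U87) and ME3 (6.03 and 0.153), other sources of NADPH, were low in U87 as well. Of 16 pentose phosphate and NADPH genes, 6 (37.5%) were 2-fold or more higher in DBTRG-05MG and 3 (18.75%) in U87. In the pentose phosphate branch, the transaldolase TALDO1 stood at 102 FPKM in DBTRG-05MG and 279 in U87. OGDHL, a brain form of the oxoglutarate dehydrogenase, stood at 27.1 and 0.0262 FPKM, whereas the common form OGDH was within 2-fold, at 75.4 and 39.7 FPKM. The proline oxidase PRODH stood at 61.2 FPKM in DBTRG-05MG and 0.082 in U87, and the next enzyme of that path, ALDH4A1, at 8.34 and 0.855 FPKM. The glycine cleavage enzyme GLDC (32.9 FPKM in DBTRG-05MG, 0 in U87) and the transsulfuration enzyme CBS (30.2 and 0.0724) had the same pattern. Among aldehyde dehydrogenases, ALDH2 stood at 32.6 FPKM in DBTRG-05MG and 0.0959 in U87 and ALDH1A1 at 20.4 and 0.0834 FPKM, while ALDH1A3 was higher in U87, at 75 FPKM in DBTRG-05MG and 154 in U87, a difference seen again in 0 of 4 later pairs and turned round at 12, 24 and 48 h. NNT, ME1, ME3, OGDHL, PRODH, GLDC, CBS, ALDH2 and ALDH1A1 were again at least 2-fold higher in DBTRG-05MG in all 4 later pairs.

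**Figure D5:**
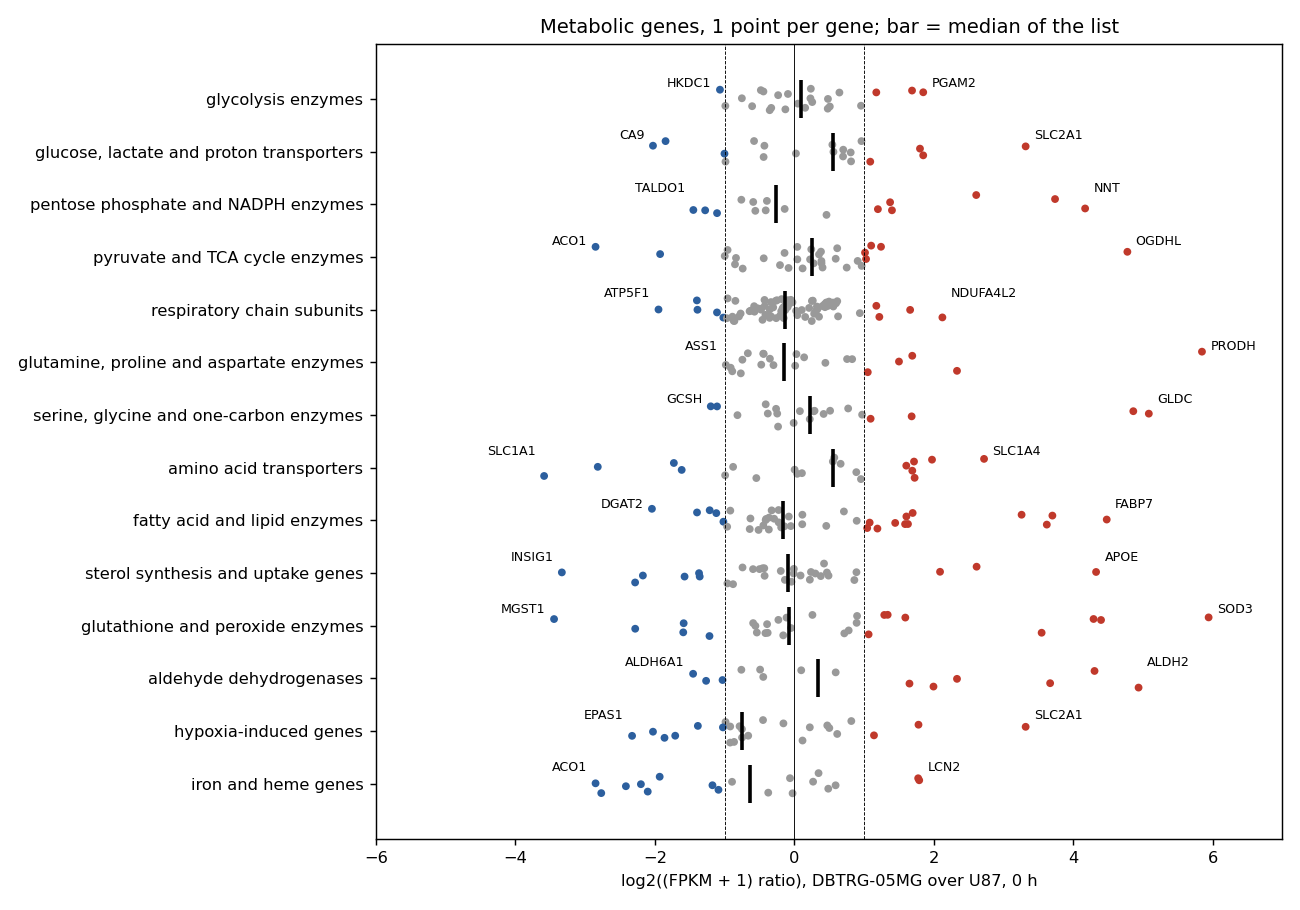
log2((FPKM + 1) ratio), DBTRG-05MG over U87 at 0 h, for genes past the filter in 14 metabolic lists, 1 point per gene; red is at least 2-fold higher in DBTRG-05MG, blue at least 2-fold higher in U87, grey within 2-fold, black bars are list medians and the outermost gene on each side is named. Respiratory chain and glycolysis points crowd near 0, while single enzymes such as PRODH, GLDC, NNT and ALDH2 stand far to the right.

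Other metabolic genes were higher in U87. KYNU, the kynurenine hydrolase, stood at 2.07 FPKM in DBTRG-05MG and 78.2 in U87, and the glutamate carrier SLC1A1 at 0.0904 and 12.1 FPKM. Iron and heme genes leaned to U87, 2 of 18 (11.1%) at least 2-fold higher in DBTRG-05MG and 8 (44.4%) in U87 (median -0.63). ACO1, the cytosolic aconitase that also controls iron mRNAs, stood at 7.31 FPKM in DBTRG-05MG and 58.9 in U87, the ferritin light chain FTL at 588 and 2245 FPKM, and heme oxygenase HMOX1 at 25.1 and 111 FPKM. Of 29 NRF2 targets and carbonyl reductases, 4 (13.8%) lay 2-fold towards DBTRG-05MG and 6 (20.7%) towards U87, against 18.1% and 11.2% of all genes. AKR1B1, aldose reductase, stood at 220.2 and 1275 FPKM in DBTRG-05MG and U87, and NQO1 was level at 52.2 and 50.8 FPKM. Extracellular superoxide dismutase SOD3 stood at 667 FPKM in DBTRG-05MG and 9.88 in U87, GPX7 at 20.1 FPKM and 0, and the membrane transferase MGST1 at 12 and 140.4 FPKM.

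Lipid genes lay on both sides. Of the desaturases, SCD5 (27.7 FPKM in DBTRG-05MG, 2 FPKM in U87) and FADS2 (56.4 and 3.67) were higher in DBTRG-05MG and SCD (31.2 and 83.8) in U87. Of 40 fatty acid and lipid genes, 12 (30%) were 2-fold higher in DBTRG-05MG and 5 (12.5%) in U87. APOE stood at 25.8 FPKM in DBTRG-05MG and 0.335 in U87. The sterol sensor INSIG1 stood at 4.5 and 54.5 FPKM, the lipoprotein receptor LRP1 at 23.8 and 119.6 FPKM and the cholesterol exporter of the lysosome NPC1 at 14 and 66.4 FPKM, all higher in U87. Of 32 sterol genes, 3 (9.38%) lay 2-fold towards DBTRG-05MG and 6 (18.8%) towards U87, against 18.1% and 11.2% of all genes. The large neutral amino acid carrier SLC7A5 stood at 52.3 FPKM in DBTRG-05MG and 15.1 in U87.

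Ribosomal protein genes lay to the U87 side at 0 h. Of 72 past the filter, 39 were at least 2-fold higher in U87 and none in DBTRG-05MG, with a median log2 ratio of -1.09. RPLP2 stood at 447 FPKM in DBTRG-05MG and 3259 in U87, RPSA at 242 and 1277 FPKM and RPLP0 at 566 and 2706 FPKM. Of the 39, 2 genes, RPLP0 and RPL27A, were 2-fold higher in U87 in all 4 later pairs, and the median was -0.87 at 6 h, -0.50 at 12 h, -0.14 at 24 h and -0.76 at 48 h. These are short transcripts, and 57 of 72 fell in the shortest of 5 length bins. The median ratio of that bin was -0.02 with them and 0.01 without them, against 0.13 in the longest bin. Replication-dependent histone genes, which poly(A) selection captures in part, were 2-fold higher in DBTRG-05MG for 5 of 10 and in U87 for none. Heat shock and handling genes had 2 of 12 on each side. The part of RNA quality or library preparation in these differences was not tested.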

How the data were processed

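Poly(A) RNA was sequenced in 10 libraries, of which the 2 at 0 h, 1 per line, were compared and the 8 later ones described beside them. The authors' deposited table holds 1 value per gene and library, read as FPKM because the lowest values step in whole fragments scaled by transcript length; the unit is not given in the sources used here, so FPKM is an inference. HISAT, Bowtie2, RSEM and the build hg38 are named, with no versions, per the submitters' processing notes. A deposited value of 0.002 was read as 0. Groups came from the labels' cell line and time. Columns of no sample numbered 0.

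Ratios were log2((FPKM + 1) ratio) for genes whose mean of the 2 libraries reached 1 FPKM. Their arithmetic was checked on a copy of the U87 0 h library with known fold changes put in. That copy had no added noise, so the check does not bear on the precision of a ratio. With 1 library per line there was no test. Fragment numbers were estimated from genes with 1 annotated transcript (147 in DBTRG-05MG, 141 in U87) and relative depth from 266 of 1100 low genes, and both are approximate. Since read counts were not used, no counting interval is given. Gene symbols that read as dates numbered 25; 19 of these genes passed the filter and none is named, nor are sex-linked marker genes. Some other genes of the lists are not reported here.

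The members and the 64 gene lists (1852 genes in the table, 1403 past the filter) were chosen with earlier results of these data known. Named genes were the 15 per direction with the largest ratio, up to 6 members per list with the largest ratio, the most abundant member, defining markers under 1 FPKM in both lines, and a set on IL-6, drivers, identity, interferon and glycolysis. Other list members given were chosen after their values were seen, and not all genes under the rule are printed. Several lists share members. Positions came from GENCODE release 29 (GRCh38) and promoter sequences from RefSeq (GRCh38.p14), matched by symbol. Alternatives were the pseudocount, the filter, scaling, the fold threshold and the later libraries. Tools were matplotlib 3.10.9, scipy 1.17.1, pandas 2.3.3 and numpy 2.4.6 under Python 3.11.15.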

Additional observations from a re-analysis of the deposited data

How the results depend on the processing

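The counts of genes at least 2-fold apart, 2232 towards DBTRG-05MG and 1382 towards U87, became 1101 and 733 with a pseudocount of 5, and 887 and 355 at a 4-fold threshold. With a mean of at least 5 FPKM the DBTRG-05MG count was 1258. These shifts come with the alternative's own construction, since each shrinks ratios or removes genes. Under the other alternatives, scaling and later libraries included, both counts stayed within 1.5 times. The counts seen again in all 4 later pairs, 1300 and 506, were 601 and 259 with a pseudocount of 5, and the first was 702 with a mean of at least 5 FPKM, alternatives chosen after seeing the data. Median centring shifted all ratios by -0.10, upper quartile scaling by 0.00 and scaling without the 10 most abundant genes by 0.08, and reversed none of the 232 genes named with a 2-fold difference. List medians depended more on the settings. Of 16 list medians at least 2-fold from equal, 8 stayed so with a pseudocount of 5 and 6 with no filter, and none changed sign under these 2 settings. The cancer-testis list turned to -0.83 with a mean of at least 5 FPKM, where 1 gene was left. Some genes changed sign in later libraries, and the cause was not tested. CD44 stood at -0.39, -0.91, -1.10 and -0.38 at 6, 12, 24 and 48 h and -0.34 over the mean of 5 libraries. BNIP3 stood at -0.24, -1.92 and -1.95 at 6, 12 and 24 h and -0.41 over that mean, PFKFB3 at -0.60 and -0.57 at 6 and 12 h, ALDH1A3 at 0.60, 0.49 and 0.35 at 12, 24 and 48 h and 0.071 over that mean, ABCA1 at 0.14 at 24 h and IL8 at -0.37 at 48 h. Leaving out a replicate was not possible with 1 library per line at 0 h. No paired analysis was possible because each line has 1 library at 0 h and no test was made. Depth limits what is seen below about 0.0564 FPKM in DBTRG-05MG and 0.0494 in U87 for a 2 kb transcript.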

Other observations

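Some genes near absent in one line lie next to each other in the genome (GENCODE release 29, GRCh38). Of the 126 genes under 0.1 FPKM in U87 and at least 10 FPKM in DBTRG-05MG, CDKN2C on chromosome 1 (50960745 to 50974633) is preceded by FAF1 (50437028 to 50960263), 481 bases away. FAF1, an adaptor of protein degradation, was singled out after its values were seen. It stood at 18.6 FPKM in DBTRG-05MG and 0.0382 in U87 before dbcAMP, and from 16.6 to 20.9 FPKM in the later DBTRG-05MG libraries and 0 to 0.0407 FPKM in the later U87 libraries. HOXB8 and HOXB9 on chromosome 17, 6219 bases apart, and the overlapping antiviral genes CMPK2 and RSAD2 on chromosome 2 are other such neighbours. Copy number was not measured here.

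Of 12 ABC exporter genes past the filter, 3 (25%) were 2-fold or more higher in DBTRG-05MG and 1 (8.33%) in U87, against 18.1% and 11.2% of all genes. The lipid pump ABCA3 stood at 12.9 FPKM in DBTRG-05MG and 0.656 in U87, and ABCB4, a phospholipid pump of bile, at 7.24 and 0.0248 FPKM. The cholesterol exporter ABCA1 was on the other side, at 12.5 FPKM in DBTRG-05MG and 39.1 in U87, a difference seen again in 1 of 4 later pairs. Of 3 listed cancer-testis antigens past the filter, 2 were 2-fold higher in DBTRG-05MG and none in U87. MAGEC2 stood at 4.8 FPKM in DBTRG-05MG and 0.0495 in U87, and PAGE5 at 3.81 FPKM and 0. CT45A5, a cancer-testis gene outside that list and singled out after its values were seen, lay the other way, at 0.0842 FPKM in DBTRG-05MG and 11.2 in U87.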
